A study of Homo sapiens with 43 samples.

Results

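The peak lists of 2 V5 eCLIP libraries, HNRNPC isoform 1 and HNRNPC isoform 2, were compared directly with each other. Both lists were taken by sample title, and together they hold 108642 of the 1430241 peaks deposited for the series, 49319 for isoform 1 and 59323 for isoform 2. Each isoform has 1 library, so no difference between them has a replicate check and no p-value is given for one. A peak here is any row of a list, including rows with no enrichment.

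HNRNPC is a nuclear RNA-binding protein that assembles as a tetramer on newly made transcripts and prefers runs of uridine. It is known for packaging pre-mRNA and for keeping splicing factors away from cryptic splice sites, among them those in antisense Alu elements. Alternative splicing of its own transcript gives a shorter and a longer protein, C1 and C2, which are present together in most cells and which differ by a short in-frame stretch.

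eCLIP crosslinks a protein to its RNA in living cells, pulls the protein down, cuts the complexes from a protein gel and sequences the RNA, and the same gel window of lysate without pull-down serves as the size-matched input. The isoform 1 and isoform 2 libraries came from HEK293T cells, a human embryonic kidney line, and used 1 lot of V5 antibody; per the series title, tags were placed into the endogenous genes with CRISPR/Cas9. A wild-type library used an antibody against HNRNPC itself in HEK293T cells, and 7 V5-only libraries used the same V5 antibody on 7 gel windows of 75 kDa, the lowest starting at 25 kDa and the highest ending at 250 kDa. All cells received ultraviolet light at 254 nm and 400 mJ/cm2. Each isoform library has its own input in the sample list. The labels do not say which form of HNRNPC each isoform number stands for, where the tag sits, whether each line is 1 clone, or whether the untagged form was still made in the tagged cells. The line used for the V5-only libraries is given as HEK293T with nothing on a tag.

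A pair of HNRNPC splice forms in the GENCODE annotation shows the stretch in which C1 and C2 differ. It is 39 nt long, or 13 codons, and lies at chr14:21230958-21230996 on the minus strand of GRCh38. The coding sequence is 918 nt with it and 879 nt without it, or 306 and 293 codons. The lines below give the junction with 15 coding bases on either side, the stretch in capitals, so that the difference between the 2 annotated forms can be read.
HNRNPC-202: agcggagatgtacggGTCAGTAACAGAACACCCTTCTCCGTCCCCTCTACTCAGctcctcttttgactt
HNRNPC-203: agcggagatgtacggctcctcttttgactt
Because the labels leave the numbering unexplained, neither sequence is assigned to either library.

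Each peak carries the authors' log2 fold over input and −log10 p. A peak was called significant when its −log10 p reached 3 and its log2 fold reached 3 as well, which is 8-fold over input. The isoform 1 list held 375 significant peaks, which is 0.760% of its peaks (95% Wilson interval 0.687 to 0.841). The isoform 2 list held 1168, which is 1.97% of its peaks (1.86 to 2.08). All such intervals below are Wilson intervals over peaks. They cover counting error only, and neighbouring peaks are not independent. Counted as places at least 1 kb apart, the significant peaks lay at 338 places for isoform 1 and 942 for isoform 2.

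Among peaks whose −log10 p reached 3, the isoform 2 list held more at each log2 fold step of 1 to 5. Of these, isoform 1 had 1211 peaks and isoform 2 had 3139 at a log2 fold of at least 1, 920 against 2776 at 2, 52 against 176 at 4, and 3 against 8 at 5. The ratio of isoform 1 to isoform 2 counts thus stayed between 0.295 and 0.386 over these steps. The lists as wholes differed less. The median log2 fold over all peaks was 1.11 for isoform 1 and 1.19 for isoform 2, the highest was 5.11 for isoform 1 and 5.32 for isoform 2, and 15.2% of isoform 1 peaks against 11.3% of isoform 2 peaks were below input. Peaks were short in both lists, with a median of 29 nt for isoform 1 and 32 nt for isoform 2, and of 40 nt for isoform 1 and 38 nt for isoform 2 among the significant ones.

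The lists give no read counts, so depth per library is unknown. The fold values fall on steps that can be read as small whole-number ratios. The commonest log2 fold was 0.69 in isoform 1 and 0.61 in isoform 2, and in both lists further common values stood 0.42, 0.74 and 1.00 above it, as 4, 5 and 6 reads would stand above 3. Read in this way, as 3 pull-down reads over 1 input read, the commonest value gives a log2 ratio of input depth to pull-down depth of −0.89 for isoform 1 and −0.98 for isoform 2. Whether total depth differed between the isoforms, and what part it has in the counts above, was not tested.

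Most significant isoform 1 peaks had a counterpart in the isoform 2 list, but usually one under the threshold. Because the isoform 1 peaks were picked for a high fold, weaker isoform 2 values follow in part from that choice. The same holds in reverse for the significant isoform 2 peaks in the next paragraph. Of the 375, 69 overlapped a significant isoform 2 peak by at least 1 nt on the same strand, 244 overlapped isoform 2 peaks that missed the threshold, and 62 overlapped none. That is 18.4%, 65.1% (60.1 to 69.7) and 16.5% (13.1 to 20.6). Over all isoform 1 peaks, 1.41% overlapped a significant isoform 2 peak and 47.6% overlapped any isoform 2 peak. In the 244, the isoform 2 log2 fold was taken from the highest overlapping isoform 2 peak. It had a median of 2.14 (interquartile range 1.64 to 2.51), and none of these isoform 2 values was below input.

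Of the 1168 significant isoform 2 peaks, 73 overlapped a significant isoform 1 peak, 655 overlapped isoform 1 peaks under the threshold, and 440 overlapped none. That is 6.25%, 56.1% (53.2 to 58.9) and 37.7% (34.9 to 40.5), where over all isoform 2 peaks 0.568% overlapped a significant isoform 1 peak and 40.2% overlapped any. The isoform 1 log2 fold in the 655, taken in the same way, had a median of 1.81 (interquartile range 1.28 to 2.36), and 7 of them were below input. The share with no counterpart at all was therefore larger among isoform 2 peaks, with intervals that did not meet, while the isoform 1 list was the shorter of the 2. With the isoform 2 list held to its 375 significant peaks of highest fold, 5.6% (3.69 to 8.41) of isoform 1 peaks and 6.13% (4.12 to 9.03) of isoform 2 peaks were shared. With a log2 fold of 2 as the threshold, the shares were 43.3% of 920 isoform 1 peaks and 15.1% of 2776 isoform 2 peaks. The shares over all peaks at this threshold were not computed.

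**Figure D1:**
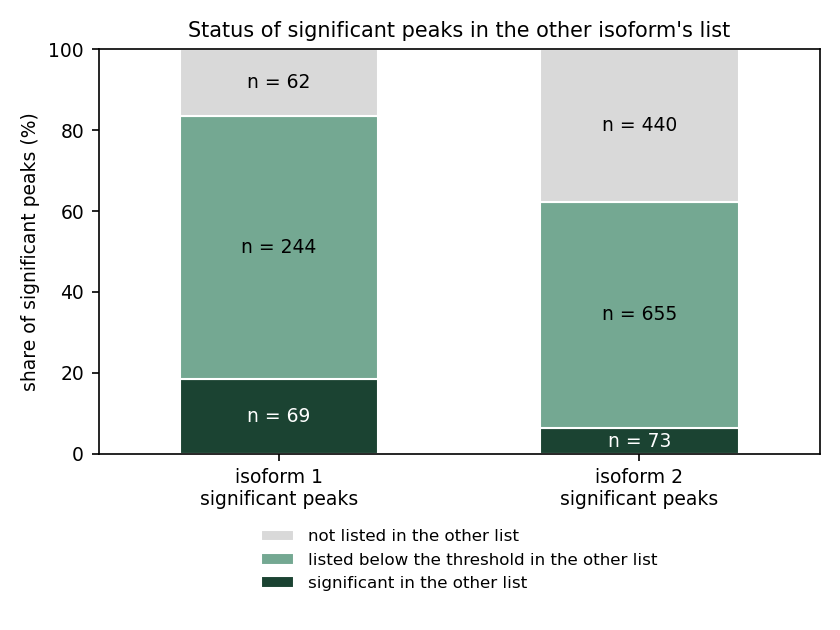
Share (%) of the significant peaks of isoform 1 (left bar) and isoform 2 (right bar) by what the other isoform's list holds at the same place and strand; n counts peaks. The middle class is the largest in both bars, with 244 peaks for isoform 1 and 655 for isoform 2, and peaks with no counterpart make up 16.5% of isoform 1 and 37.7% of isoform 2 peaks.

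Among significant peaks, stronger statistical support went with a higher shared share. Without the fold threshold this did not hold throughout for isoform 1, as given further below. Isoform 1 peaks were also significant in isoform 2 in 15.3% of cases (42 of 274) at a −log10 p of 3 to 5, 25.0% (23 of 92) at 5 to 10, and 44.4% (4 of 9; 18.9 to 73.3) at 10 or more. For isoform 2 peaks the shares in isoform 1 were 4.4% (34 of 772), 8.90% (30 of 337) and 15.3% (9 of 59; 8.24 to 26.5). The intervals of neighbouring classes overlapped for isoform 1, and for isoform 2 those of the upper pair of classes did. No such order was seen with fold: isoform 1 shares were 20.6%, 11.5%, 36.4% and 37.5% over log2 folds of 3 to 3.5, 3.5 to 4, 4 to 4.5 and above, and isoform 2 shares were 7.62%, 4.58%, 8.82% and 5.00%.

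Counting neighbours as well as overlapping peaks gave larger shares as the distance allowed grew. Among significant isoform 1 peaks, of which 18.4% overlapped a significant isoform 2 peak, 22.1% had a significant isoform 2 peak on the same strand within 0.1 kb, 31.7% within 1 kb, 43.7% within 10 kb and 58.9% within 100 kb. Isoform 1 peaks that were not significant had such a neighbour in 1.59%, 4.10%, 9.22% and 19.7% of cases. On the opposite strand none of the 375 had one within 1 kb, which allows a share of up to 0.800%. There 0.267% had one within 10 kb and 11.5% within 100 kb. The isoform 1 peaks that were not significant gave 0.00613%, 0.311% and 7.57% on the opposite strand. Up to 10 kb the opposite strand thus did not set the significant peaks apart. For significant isoform 2 peaks, of which 6.25% overlapped a significant isoform 1 peak, the same-strand shares were 8.30%, 12.6%, 19.5% and 28.2%, against 0.745%, 2.20%, 4.87% and 9.93% for the other isoform 2 peaks.

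The overlapping peaks gave 24496 pairs, made of 23492 isoform 1 and 23836 isoform 2 peaks. Their borders were similar, with a median of 65.1% of the joint length shared and 141 pairs of identical borders. Isoform 1 minus isoform 2, the log2 fold differed by a median of −0.17 (interquartile range −0.91 to 0.54), and isoform 1 was the higher in 43.5% of pairs. Isoform 1 was higher by a log2 of 2 or more in 566 pairs, 2.31% of all, and isoform 2 in 1231 pairs, 5.03% of all.

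How closely the folds followed each other depended on which pairs were taken. Over all pairs Pearson's r was 0.62 and Spearman's rho 0.43. Over the 20093 pairs above input in both lists r was 0.27, and over the 1552 pairs below input in both it was 0.92. The pairs share the libraries and whole-number read steps, and neighbouring pairs are not independent, so these values are descriptions. Over the 795 pairs with a −log10 p of at least 3 in both lists, the median difference was 0.00, r was 0.60 and 82.4% of pairs were within a log2 of 1. The share within a log2 of 1 was 64.5% over all pairs and 67.1% over the pairs above input in both lists. Requiring this support in both lists picks peaks enriched in both, which by itself limits how far the folds can differ.

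The 75 pairs significant in both lists had a median log2 fold of 3.63 in isoform 1 and 3.54 in isoform 2, with 88.0% within a log2 of 1. Pairs significant in 1 list differed in the direction that the threshold itself sets. The 269 pairs significant in isoform 1 alone had medians of 3.57 in isoform 1 and 2.13 in isoform 2, and the 694 significant in isoform 2 alone had medians of 1.81 in isoform 1 and 3.54 in isoform 2. In both of these classes the weaker side still stood above input in its median. Over all pairs with a significant peak in either list the median difference was −1.17, the isoform 2 list having more such peaks.

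**Figure D2:**
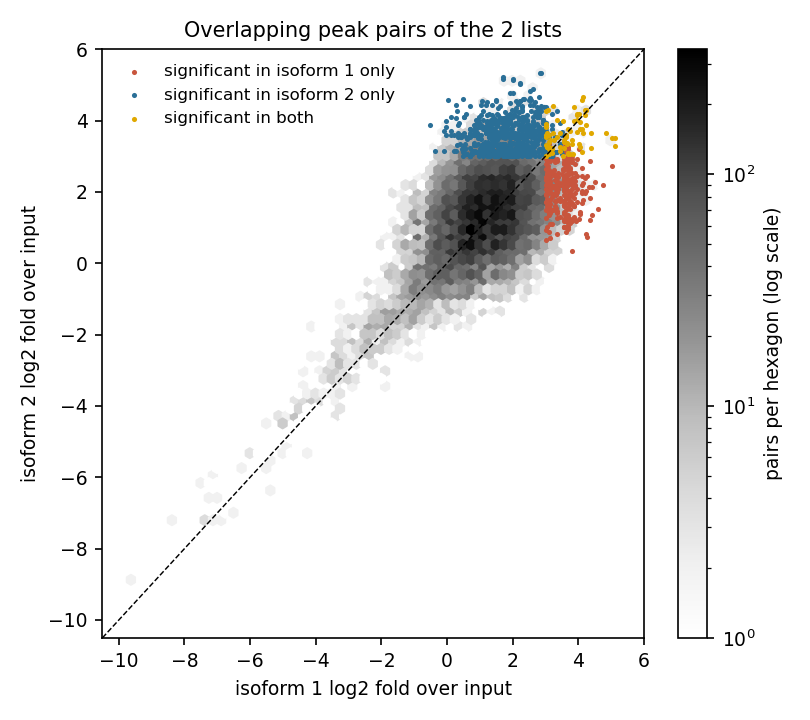
Log2 fold over input in isoform 1 (x axis) and isoform 2 (y axis) for the 24496 overlapping peak pairs; grey hexagons count pairs on a log scale, coloured points are pairs with a significant peak, and the dashed line marks equal folds. Pairs below input run along the line (r of 0.92), while pairs above input form a broad cloud (r of 0.27).

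At 65 places, a peak was significant in both isoforms. Of the 69 isoform 1 peaks there, 29 were also significant in the wild-type library, and 65 were significant in none of the 22 libraries of other proteins or of tag-only pull-downs. Such overlaps were rare in the whole list too: 1.42% of all isoform 1 peaks overlapped a significant V5-only peak. The share of all isoform 1 peaks at none of the 22 was not computed, so the count of 65 gives no contrast. The 10 peaks with the highest lower fold are given by hg19 position. Gene names were not assigned, because the annotation at hand is of another build.

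The first, chr10:5240942-5240970 on the minus strand, had a log2 fold of 4.24 in isoform 1, 4.31 in isoform 2 and 5.07 in wild type. The peak at chr5:68465803-68465847 (plus) had 4.15 in isoform 1, 4.66 in isoform 2 and 3.01 in wild type. At chr1:109240177-109240223 (plus) the values were 4.24 in isoform 1, 3.88 in isoform 2 and 5.03 in wild type. All 3 peaks were significant in wild type too. The antibody against the protein and the tag antibody gave high folds at these places in all 3 libraries.

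Others of the 10 were weak in wild type. The peak at chr17:73137322-73137365 (minus) had 4.2 in isoform 1, 4.15 in isoform 2 and 1.23 in wild type, and chrX:103430051-103430090 (plus) had 4.11 in isoform 1, 4.58 in isoform 2 and 1.31 in wild type. At both, the tagged isoforms stood well above the wild-type library. All 10 were listed in wild type and 5 were significant there. The difference between the isoforms ran between −0.51 and 0.36 over the 10, and isoform 1 was the higher in 3.

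The remaining 5 had folds between 3.86 and 4.06 in isoform 1 and between 3.95 and 4.38 in isoform 2. They lay at chr19:34871205-34871246 (plus), chr5:149402571-149402621 (plus), chr19:9675963-9676026 (minus), chr15:68516556-68516606 (minus) and chr2:71601280-71601305 (plus). Isoform 1 was the higher at the chromosome 15 peak, with 4.06 in isoform 1 and 3.95 in isoform 2. The widest gap was at the chromosome 2 peak, with 3.86 in isoform 1 and 4.38 in isoform 2.

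Of all 62 significant isoform 1 peaks with no isoform 2 counterpart, 50.0% overlapped a wild-type peak of any strength, where all isoform 1 peaks gave 44.4%. The highest of the 62 was chr6:30584358-30584385 (minus), with a log2 fold of 4.69 in isoform 1 and 3.82 in wild type. Next came chr1:245025379-245025415 (minus), with 4.47 in isoform 1 and 3.48 in wild type, and chr13:111555403-111555438 (minus), with 4.36 in isoform 1 and 3.25 in wild type. The 8 strongest are too few to stand for the 62; 7 of them were listed in wild type and 1 was significant there. The fifth to eighth lay between 4.02 and 4.11 in isoform 1.

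Of all 440 significant isoform 2 peaks with no isoform 1 counterpart, 43.9% overlapped a wild-type peak of any strength, where all isoform 2 peaks gave 46.4%. The peak at chr22:28917187-28917204 (minus) had 5.13 in isoform 2, and chr9:36595843-36595869 (plus) had 4.98; neither overlapped a wild-type peak. The peak at chrX:132057062-132057092 (minus) had 4.83 in isoform 2 and 3.73 in wild type. Of the 8 strongest, 3 were listed in wild type, and 1 was significant there. A place missing from a list has no value, so how far the other isoform lies below cannot be given.

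Among overlapping pairs with at least 1 significant peak, the largest differences gave examples in both directions. Pairs with no significant peak are not named here, and over all pairs the difference ran between −4.53 and 4.59. At chr3:42664312-42664361 (plus) the log2 fold was 4.28 in isoform 1, 0.74 in isoform 2 and 1.73 in wild type. At chr17:3725509-3725583 (minus) it was 3.81 in isoform 1, 0.34 in isoform 2 and 3.90 in wild type. The isoform 2 and wild-type peaks there overlapped different ends of the isoform 1 peak and did not overlap each other. The other way round, chr19:13878559-13878607 (plus) had 0.04 in isoform 1, 4.58 in isoform 2 and 1.73 in wild type. This place, and the next on chromosome 14, were each also significant in 1 of the 22 libraries of other proteins or tag-only pull-downs. The peak at chr14:23795309-23795338 (plus) had −0.53 in isoform 1, 3.88 in isoform 2 and 3.23 in wild type, and chr1:171499406-171499441 (plus) had 0.50 in isoform 1, 4.61 in isoform 2 and 4.09 in wild type. Of the pairs with a significant peak, the 4 largest differences each way were 3.16 to 3.54 with isoform 1 higher and −4.53 to −4.10 with isoform 2 higher, and these pairs were picked for the size of their difference. Of the 5 named, the wild-type fold was nearer to isoform 1 at 2, among them the chromosome 17 peak, and nearer to isoform 2 at 3.

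The wild-type library recovered the peaks shared by the isoforms more often than the rest. Of the isoform 1 peaks significant in both isoforms, 42.0% (31.1 to 53.8; 29 of 69) overlapped a significant wild-type peak, against 21.3% (16.6 to 26.9; 52 of 244) of those listed below threshold in isoform 2 and 6.45% (2.54 to 15.4; 4 of 62) of those not listed there. The share over all isoform 1 peaks was 1.88%. For isoform 2 the shares were 42.5% (31.8 to 53.9; 31 of 73), 14.96% (12.4 to 17.9; 98 of 655) and 5.45% (3.69 to 7.99; 24 of 440), with 1.83% over all isoform 2 peaks. The 3 classes kept this order in both lists, and the first and last had intervals that did not meet.

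Being listed at all in wild type set apart the peaks with no counterpart, while the other 2 classes had overlapping intervals. A wild-type peak of any strength overlapped 88.4%, 88.9% and 50.0% of the 3 isoform 1 classes and 89.0%, 85.2% and 43.9% of the isoform 2 classes, where 44.4% of all isoform 1 peaks and 46.4% of all isoform 2 peaks overlapped one. Significant peaks without a counterpart were thus listed in wild type about as often as all peaks of their list together. The lists include peaks with a counterpart, and the share over all peaks without one was not computed. At significant wild-type peaks this class lay above its list, with 6.45% against 1.88% for isoform 1 and 5.45% against 1.83% for isoform 2. Where peaks of this class were listed, the wild-type log2 fold had a median of 2.43 for isoform 1 and 2.12 for isoform 2.

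**Figure D3:**
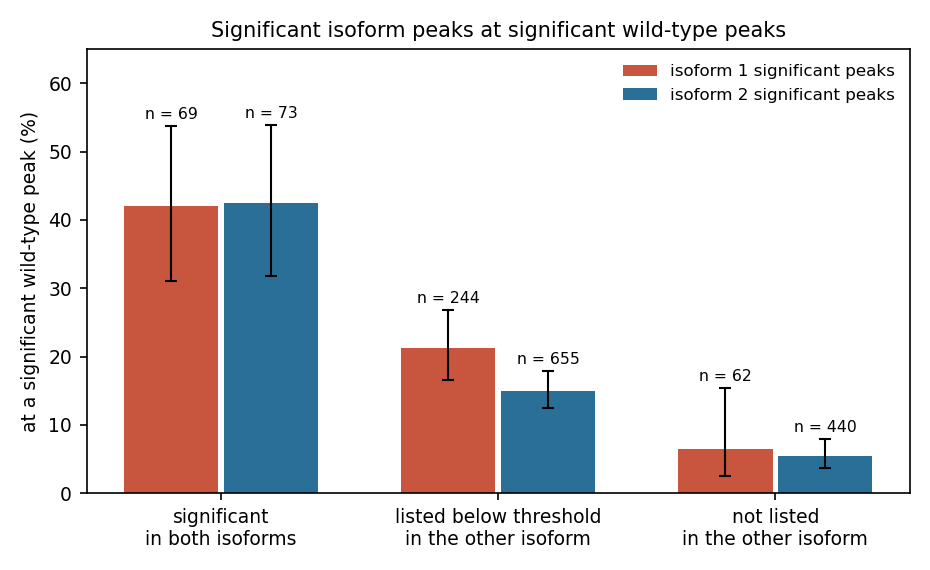
Share (%) of significant isoform 1 (left of each pair) and isoform 2 (right) peaks that overlap a significant wild-type peak, by their status in the other isoform; bars show 95% Wilson intervals over n peaks. For peaks significant in both isoforms the shares are 42.0% of isoform 1 and 42.5% of isoform 2 peaks, and for peaks not listed in the other they are 6.45% of isoform 1 and 5.45% of isoform 2 peaks.

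Seen from the 1357 significant wild-type peaks, each isoform was listed at most places and significant at few. Isoform 1 was listed at 942 of them (69.4%, 66.9 to 71.8) with a median log2 fold of 1.97, and isoform 2 at 1066 (78.6%, 76.3 to 80.7) with a median of 2.14. Isoform 1 was significant at 91 of these places and isoform 2 at 153, and both were at 31. Over all wild-type peaks, 0.517% overlapped a significant isoform 1 peak and 1.24% a significant isoform 2 peak. The share of all wild-type peaks at which either isoform was listed was not computed. At the 879 places listed by both, isoform 1 minus isoform 2 had a median of −0.19 (interquartile range −0.88 to 0.51), and isoform 1 was higher at 42.2%. These values are near those of all pairs given above, a median difference of −0.17 and 43.5%.

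A high wild-type fold went with recovery by isoform 1 in the top class alone. Of wild-type peaks with log2 folds of 3 to 3.5, 3.5 to 4, 4 to 4.5 and above 4.5, isoform 1 was significant at 6.78%, 5.47%, 3.77% and 21.7%. Isoform 2 was significant at 12.6%, 9.06%, 12.3% and 18.5%. The top class held 92 wild-type peaks, with intervals of 14.5 to 31.2 for isoform 1 and 11.9 to 27.6 for isoform 2. The isoform 1 share lay below the isoform 2 share in the lower 3 classes, with intervals that overlapped in the class of 3.5 to 4, and was not distinguishable from it in the fourth.

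The enrichment of both isoforms was weaker at places bound by the other proteins. At the significant peaks of 8 libraries of FMR1, RBFOX2, LIN28 and DGCR8, isoform 1 was listed at 2.00% to 9.19% and isoform 2 at 1.55% to 8.53% of places. The median log2 fold there ran between −0.15 and 0.83 in isoform 1 and between −0.42 and 0.81 in isoform 2, and the highest was at RBFOX2 V5 peaks in both. FMR1 binds coding mRNA, RBFOX2 binds introns near regulated exons, LIN28 binds let-7 precursors and many mRNAs, and DGCR8 binds primary microRNA transcripts. No more than 3 peaks of any of these 8 lists were significant in isoform 1, and no more than 3 in isoform 2. That is at most 0.0990% of a list's significant peaks for isoform 1 and 0.0984% for isoform 2. At significant wild-type HNRNPC peaks the shares were 6.71% for isoform 1 and 11.3% for isoform 2. The shares over all peaks of these 8 lists, listed or significant in an isoform, were not computed.

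**Figure D4:**
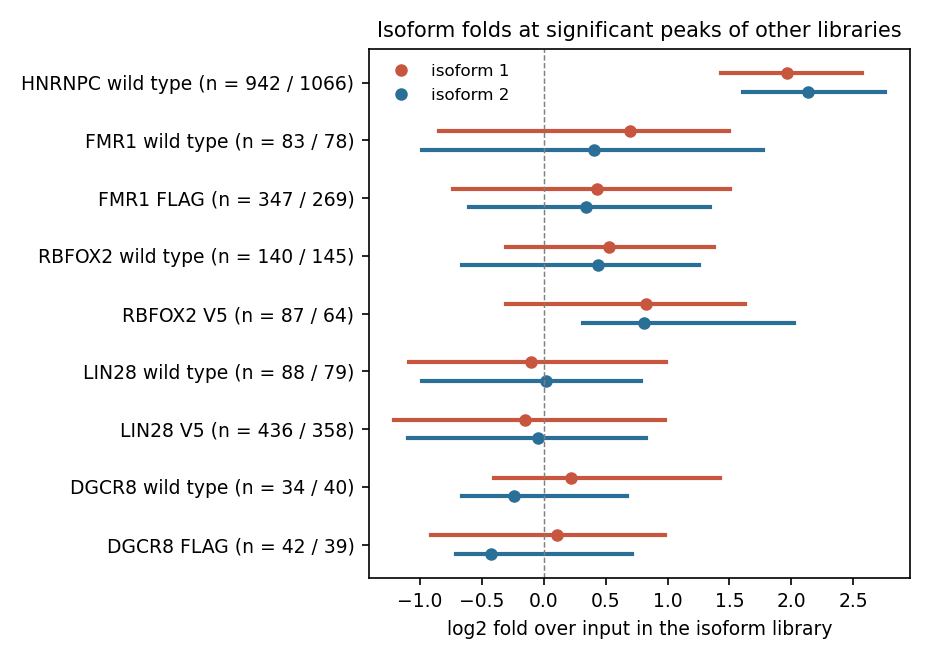
Log2 fold over input (x axis) in isoform 1 (upper of each pair) and isoform 2 (lower) at the significant peaks of 9 other libraries; points are medians, lines interquartile ranges, and n counts places listed by isoform 1 / isoform 2. At wild-type HNRNPC peaks the medians are 1.97 in isoform 1 and 2.14 in isoform 2, and at peaks of the other proteins they are at most 0.83 in isoform 1 and 0.81 in isoform 2.

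Few significant peaks of either isoform lay where the V5 antibody alone gave peaks. Of the significant isoform 1 peaks, 15 overlapped a significant peak of some V5-only library, 4.0% (2.44 to 6.49) where all isoform 1 peaks gave 1.42%. For isoform 2 it was 29 peaks, 2.48% (1.73 to 3.54) where all isoform 2 peaks gave 1.24%. Both shares were above those of all peaks, which lay outside the intervals. When V5-only peaks within 1 kb were counted, the shares were 20.3% for isoform 1 and 10.7% for isoform 2. With a log2 fold of 2 enough to call a peak, they were 11.7% for isoform 1 and 6.02% for isoform 2. The shares over all peaks were not computed at either setting. Of the peaks significant in both isoforms, 3 of 69 isoform 1 peaks (4.35%) and 3 of 73 isoform 2 peaks (4.11%) overlapped a significant V5-only peak. At the V5-only peaks themselves, the median log2 fold lay between −0.72 and 0.39 in isoform 1 and between −0.85 and 0.61 in isoform 2.

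Peaks far below input were shared more often than peaks slightly below it. At a log2 fold of −3 or below, isoform 1 had 367 peaks (0.744% of its list) and isoform 2 had 332 (0.560%). Of these, 50.1% (45.0 to 55.2) of the isoform 1 peaks and 56.0% (50.6 to 61.3) of the isoform 2 peaks overlapped a peak as low in the other list. At −1 or below the shares were 32.3% for isoform 1 and 35.8% for isoform 2. None of these depleted peaks overlapped a significant peak of the other isoform, where 1.41% of all isoform 1 and 0.568% of all isoform 2 peaks did. At −3 or below, 67.6% of the isoform 1 and 61.7% of the isoform 2 peaks overlapped any peak of the other list. Over all peaks these shares were 47.6% for isoform 1 and 40.2% for isoform 2. The share of all peaks that overlapped a depleted peak of the other list was not computed.

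Mitochondrial RNA was depleted in both pull-downs. The mitochondrial chromosome held 144 isoform 1 and 129 isoform 2 peaks, with median log2 folds of −2.39 in isoform 1 and −2.17 in isoform 2. None was significant, which allows a share of up to 2.08% for isoform 1 and 2.33% for isoform 2. Over the whole lists 0.760% of isoform 1 and 1.97% of isoform 2 peaks were significant. Both shares lie under these limits, so the lack of significant peaks does not set the mitochondrial peaks apart. Over the 167 overlapping pairs there, Pearson's r was 0.97 and isoform 1 minus isoform 2 had a median of −0.36, with isoform 1 the higher in 27 pairs.

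The peaks with the highest −log10 p were not those with the highest fold. A −log10 p of 20 or more was reached by 56 isoform 1 peaks and 43 isoform 2 peaks, although isoform 2 had more peaks whose −log10 p reached 3 (1277 in isoform 1 against 3186 in isoform 2). Their median log2 fold was 1.85 in isoform 1 and 2.20 in isoform 2, and none of the isoform 1 peaks and 4 of the isoform 2 peaks also passed the fold threshold. Of these peaks 51.8% (39.0 to 64.3) of isoform 1 and 48.8% (34.6 to 63.2) of isoform 2 overlapped one of the same strength in the other list. With a −log10 p of at least 3 in both lists, the shares were 53.2% for isoform 1 and 21.8% for isoform 2. With at least 10 they were 62.8% for isoform 1 and 42.6% for isoform 2. The isoform 1 share thus did not rise throughout with support. The highest −log10 p was 400, the cap of the file, in isoform 1 and 80.0 in isoform 2.

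To compare the isoforms over longer stretches, peaks of either list whose −log10 p reached 3 and whose log2 fold reached 1 were merged within 5 kb on a strand. This rule was chosen after the values were seen. It gave 1850 stretches, of which 415 had such peaks of both isoforms, 215 of isoform 1 alone and 1220 of isoform 2 alone. Stretches were ranked by the smaller of the isoforms' numbers of such peaks, and of the first 12, 10 are reported. The first and the sixth are not among the 10, so no tally over ranked stretches is given.

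Of the 10, the highest share of pairs with isoform 1 on top was in a 5097 nt stretch at chr11:65267833-65272929 (plus). It held 68 isoform 1 and 58 isoform 2 peaks, of which 36 in isoform 1 and 11 in isoform 2 were enriched in the sense just given. Isoform 1 was higher in 68 of 75 overlapping pairs, or 90.7%, where 43.5% was the share over all pairs, and the median difference was 0.53. No peak of either isoform there reached a log2 fold of 3; the highest was 2.97 in isoform 1 and 1.85 in isoform 2. Pairs in 1 stretch are neighbours on 1 strand, and 1 peak can stand in several pairs, so no interval is given.

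A second stretch on the same strand, 17939 nt at chr11:65193008-65210946, did not lean this way. It held 81 isoform 1 peaks, 34 of them enriched, and 65 isoform 2 peaks, 20 of them enriched, with a median difference of −0.04 and isoform 1 higher in 37 of 85 pairs. At chr22:38879932-38887878 (minus), isoform 1 was higher in 38 of 62 pairs, with a median difference of 0.11. At chr1:76252256-76259156 (plus), it was higher in 11 of 21 pairs, with a median difference of 0.12.

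**Figure D5:**
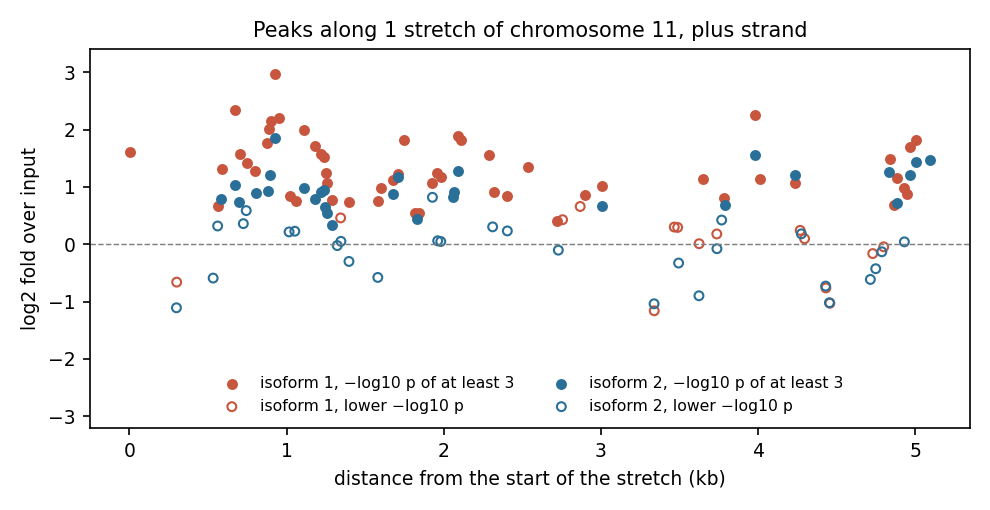
Log2 fold over input of each isoform 1 (red) and isoform 2 (blue) peak along the 5097 nt stretch of chromosome 11, by distance of the peak's middle from the start of the stretch (kb); filled points have a −log10 p of at least 3. Isoform 1 peaks reach 2.97 and isoform 2 peaks 1.85, and isoform 1 is higher in 68 of 75 overlapping pairs.

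Stretches that leaned to isoform 2 included both of those named on chromosome 10. At chr10:96322875-96333433 (plus), 9 of 16 isoform 1 peaks and 17 of 17 isoform 2 peaks were enriched, and isoform 1 was higher in 3 of 16 pairs, with a median difference of −0.74. Its highest peak was nevertheless an isoform 1 peak at 5.11, against 3.5 for isoform 2. At chr10:96363901-96368630 (plus), the median difference was −0.89, with isoform 1 higher in 3 of 14 pairs.

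The median difference was −0.91 at chr12:53850851-53854485 (plus), with isoform 1 higher in 2 of 11 pairs, and −0.35 at chr1:16179522-16194243 (plus), with isoform 1 higher in 6 of 27. It was −0.33 at chr1:28832561-28840149 (plus) and −0.44 at chr7:26233508-26239645 (minus), where isoform 1 was higher in 10 of 27 and 10 of 25 pairs. Like the first chromosome 10 stretch, the chromosome 7 stretch had its highest peak in isoform 1, at 5.04 against 3.99 in isoform 2.

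The shares of significant peaks on chromosomes 1, 17 and 16 are given as examples. No intervals were computed for them, and some rest on few peaks, as with 11 significant isoform 1 peaks on chromosome 16. Whether the lists differ by chromosome was not tested. Chromosome 1 held 17.1% of the significant isoform 1 peaks and 13.96% of the isoform 2 peaks, where it held 10.7% of all isoform 1 and 10.6% of all isoform 2 peaks. Chromosome 17 held 10.1% of the significant isoform 1 and 6.34% of the significant isoform 2 peaks, with 7.65% of all isoform 1 and 6.80% of all isoform 2 peaks. Chromosome 16 held 2.93% of the significant isoform 1 and 5.14% of the significant isoform 2 peaks, with 5.85% of all isoform 1 and 5.74% of all isoform 2 peaks. On every nuclear chromosome a larger part of the isoform 2 than of the isoform 1 list was significant, as on chromosome 1 with 1.22% for isoform 1 and 2.60% for isoform 2.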

How the data were processed

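The 2 eCLIP peak lists from V5-tagged HNRNPC in HEK293T cells were compared, with the other 23 lists of the series as context. Per the submitters' processing notes, reads were processed with cutadapt, STAR, GATK, Picard and SAMtools on hg19; the program that called the peaks was not given in the sources used here. The files have no header. From their values, the deposited columns hold each peak's position, its −log10 p (the authors' value, capped at 400), its log2 fold over the size-matched input (also the authors' value) and its strand. Read counts are not in the lists, so depth is unknown.

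With Python 3.11.15, numpy 2.4.6, pandas 2.3.3 and scipy 1.17.1, peaks were called significant where the −log10 p reached 3 and the log2 fold reached 3 too. Peaks were shared when they overlapped by at least 1 nt on the same strand, and every overlapping combination was 1 pair. The medians by class and at places of other libraries are not pair values. For them, a peak overlapping several peaks of another list took the highest of their folds. Wilson intervals are at 95%, and a count of 0 allows up to 3 counts. The code was tested on simulated lists. The members, lists and rules were chosen with earlier results of these data known, and the stretches after their values were seen. The named peaks are the 10 significant in both by their lower fold, the 8 strongest of each isoform with no counterpart, and the 4 largest differences in each direction among overlapping pairs with at least 1 significant peak; peaks within 1 kb counted as 1 place. No hg19 annotation or genome was used, so gene names, introns and sequences at the peaks were not analysed here. The intended gene lists were reduced to the mitochondrial chromosome. Of 12 ranked stretches, 2 are not reported here.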

Additional observations from a re-analysis of the deposited data

Results flagged for a closer look

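Over the 7 V5-only libraries, the share of significant isoform 2 peaks lying at a significant V5-only peak was 1.54% for the 125-200 kDa window, far above the next library at 0.599% and the lowest at 0.0856%. For isoform 1 the same window was also the highest, at 2.40% with the next at 1.33%, but the gap was within the limit of the test used (Dixon's 95% critical value, 0.568 for 7 libraries). Its list of significant peaks was also the longest, with 6562 peaks. Of 4 sets of 7 values examined, 1 had such a gap. Chance gives one in about 1 in 20 sets, or in 0.2 of these 4. The gel windows overlap and the V5-only lists differ in length, so the limit is a rough guide only.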

How the results depend on the processing

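Of 48 values under alternatives, 27 kept within the interval of the main value (counts within 1.5 times) and 21 moved. No median difference changed sign. At a −log10 p of at least 5, significant peaks numbered 101 for isoform 1 and 396 for isoform 2, and 31.7% of the isoform 1 peaks overlapped a significant wild-type peak. At a log2 fold of at least 2 isoform 1 had 920 peaks, of which 43.3% were shared, 42.0% overlapped wild type and 11.7% lay at V5-only peaks; isoform 2 had 2776, with 15.1%, 24.4% and 6.02%. Within 1 kb these shares were 31.7%, 38.1% and 20.3% for isoform 1 and 12.6%, 20.98% and 10.7% for isoform 2. The matching shares over all peaks were not computed. With lists of equal length, 5.6% of isoform 1 peaks overlapped an isoform 2 peak, since fewer isoform 2 peaks remained. With 50% overlap of both peaks, 10.96% of isoform 2 peaks overlapped wild type and the median difference was −0.16. Over pairs with a significant peak it was −1.17, as isoform 2 has more such peaks. Merging peaks within 50 nt and leaving out V5-only places moved no value beyond its interval. The shares in introns and with T runs were not run, as no hg19 annotation or genome was used. No paired analysis was possible because each isoform has 1 library. Unknown depth limits what the peak numbers can show.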
